A study of Mus musculus with 6 samples.

Results

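The 10 splicing regulators Nova1, Nova2, Srrm3, Srrm4, Ptbp1, Ptbp2, Ptbp3, Rbfox1, Rbfox2 and Rbfox3 were followed in neural progenitor cells (NPCs) that lack Setd2. They were the rows whose gene symbol was one of these names, 10 of the 15095 genes in the edgeR table deposited by the authors, and each of the 10 names was found once. The table compares 3 libraries of Setd2-KO NPCs with 3 libraries of wild-type NPCs at day 8 of differentiation. Both genotypes were mouse embryonic stem cell cultures that formed aggregates for 4 days in medium without retinoic acid and were then kept for 4 more days in medium with 5 uM retinoic acid. The only genetic difference that the labels give is the loss of Setd2, whose protein deposits the histone mark H3K36me3 in transcribed genes. The cell type field of the labels says embryonic stem cells for all 6 libraries, and the titles say NPC. The study describes the knockout as a CRISPR-made line in the same isogenic background as its wild-type line. Which clone gave these libraries is not stated in the sources used here.

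Splicing regulators of this kind bind short RNA motifs in and around alternative exons and raise or lower the inclusion of those exons. Nova proteins are KH-domain proteins of neurons, and Srrm4 with its relative Srrm3 promotes the inclusion of very short neuronal exons, called microexons. Ptbp1 binds pyrimidine-rich RNA and keeps many neuronal exons out of transcripts in progenitors and non-neuronal cells, its relative Ptbp2 takes over during neuronal differentiation, and Rbfox proteins bind GCAUG elements near exons of neurons and muscle.

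Of the 10 regulators, in Setd2-KO NPCs 1 was downregulated and 0 were upregulated at a false discovery rate (FDR) under 0.05, and 9 did not pass the test. Srrm3 was the downregulated gene, with 0.429 times the wild-type level, and with the stricter Bonferroni adjustment 0 of the 10 were downregulated. Nova2 had a similar fold of 0.474 and did not pass. Ptbp1 lay at the other end, with 1.48 times the wild-type level, and did not pass either. Among all genes of the table, 2.11% were downregulated and 1.54% upregulated by the same rule, so that 1 of 10 rests on a single gene. At an unadjusted p under 0.05, 2 of the 10 (Srrm3 and Nova2) were lower and 0 were higher, where 3.43% of all genes were lower and 2.54% higher. The log2 fold changes of the 10, given here as Setd2-KO over wild type, ran from -1.22 to 0.56 with a median of -0.51, and 8 of the 10 were below 0. Over all genes the median was 0.01, and 49.2% of genes were below 0.

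The test behind these calls is glmTreat of edgeR, as deposited by the authors, and its null hypothesis is a log2 fold change between -1 and 1, not one of 0. The smallest absolute log2 fold change that passed it in the whole table was 1.09, and 736 of the 1287 genes past an absolute log2 fold change of 1 did not pass, so that a regulator without a call is not shown to be unchanged. The table holds 1 fold change, 1 average log2 CPM (CPM are counts scaled to library size, here averaged over the 6 libraries), 1 p-value and 1 FDR per gene and no values per library. No spread between libraries can therefore be printed beside a fold change, and whether the libraries of the genotypes overlap for a gene cannot be seen. No source says if libraries of 1 genotype were grown as separate cultures, so the p-values measure only a spread between libraries that may be technical. Setd2 itself had a log2 fold change of -0.44 with an FDR of 1 and an average log2 CPM of 6.88. This RNA value does not measure the protein, and the paper reports a drastic loss of H3K36me3 in Setd2-KO NPCs. RNA of bulk cultures cannot tell fewer cells of a type from less RNA per cell.

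**Figure D1:**
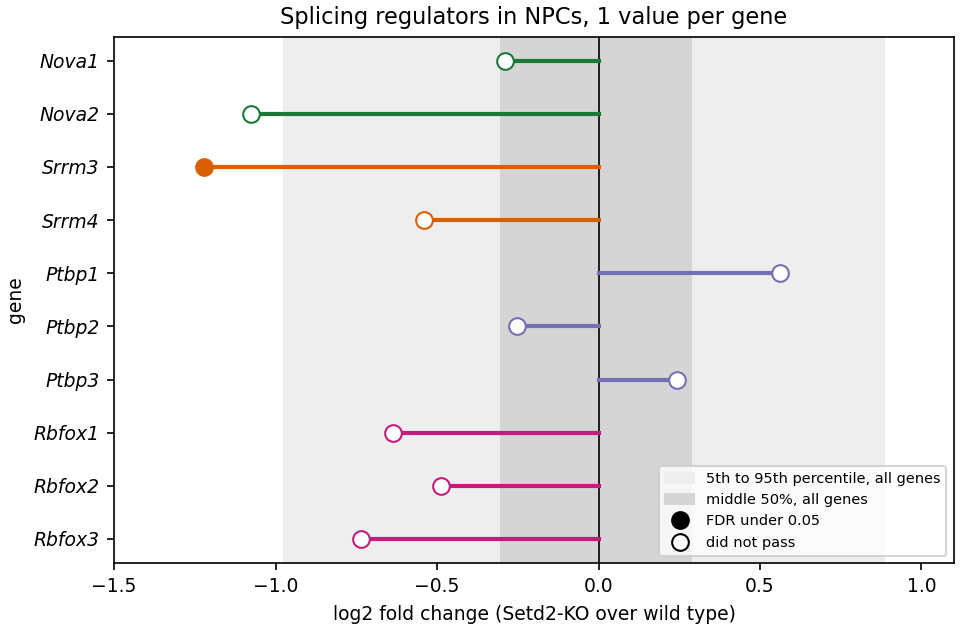
Each row is 1 splicing regulator, and the horizontal axis is its log2 fold change in Setd2-KO relative to wild type, from the deposited edgeR table; filled points have an FDR under 0.05, open points did not pass, and no error bars can be drawn because the table holds no values per library. The dark band spans the quartiles of all genes (-0.30 to 0.29) and the light band their 5th to 95th percentiles (-0.97 to 0.88): Srrm3 (-1.22) and Nova2 (-1.08) lie left of both bands, and Ptbp1 (0.56) lies right of the dark band.

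**Figure D2:**
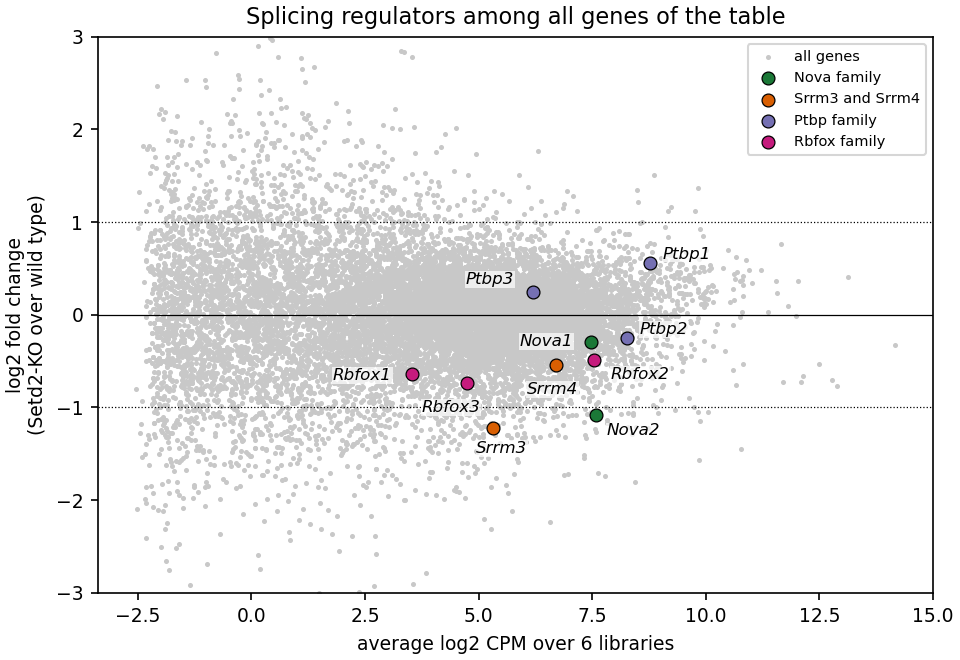
Each grey point is 1 gene, with its average log2 CPM over the 6 libraries on the horizontal axis and its log2 fold change in Setd2-KO relative to wild type, on the vertical axis; coloured points are the 10 regulators by family, dotted lines mark log2 fold changes of -1 and 1, and 19 genes outside -3 to 3 are not drawn. Srrm3 and Nova2 are the regulators below the lower dotted line.

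The levels of the 10 genes spanned a wide range. Per kb of its canonical transcript, Ptbp1 averaged 141 CPM over the 6 libraries of both genotypes. Rbfox2 followed with 84.3 and Ptbp2 with 81.4 CPM per kb. Nova2 had 23.0, Nova1 22.9 and Srrm4 13.8 CPM per kb on this scale. Ptbp3 had 10.6 and Srrm3 10.1 CPM per kb. Rbfox3 had 6.77 CPM per kb and Rbfox1 the lowest level per kb, 2.64. Per kb of all annotated exons merged, chosen once the values were known, Ptbp1 remained first with 91.3 CPM per kb, while Rbfox2 (22.0) came after Ptbp2 (24.8) and Nova2 (23.0). Nova1 had 14.1, Ptbp3 9.17 and Srrm3 6.23 CPM per kb on that scale, so that the near-equal values of Nova2 and Nova1, and of Ptbp3 and Srrm3, hold for the canonical transcripts only. With no spread over libraries it cannot be said which neighbours in this order differ.

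**Figure D3:**
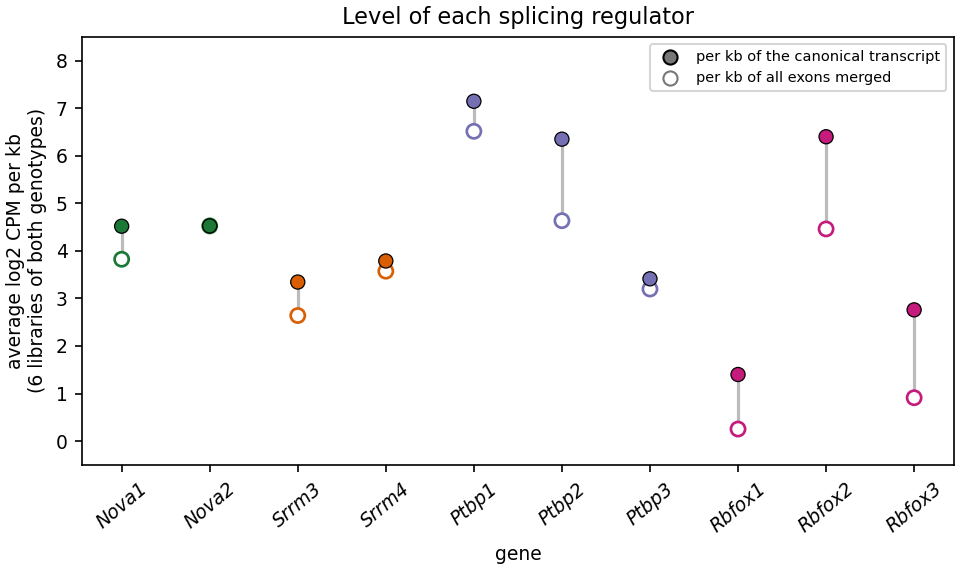
The vertical axis is the average log2 CPM over the 6 libraries of both genotypes less the log2 of the length in kb, for each regulator on the horizontal axis; filled points use the canonical transcript and open points all annotated exons merged, joined by a grey line, with no error bars because no values per library exist in the table. Ptbp1 is highest and Rbfox1 lowest on both scales, and Ptbp2, Rbfox2 and Rbfox3 move most between the scales.

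Srrm3 encodes a serine- and arginine-rich protein that, like Srrm4, acts on microexons. The gene lies on chromosome 5 from 135835744 to 135903626 on the plus strand (GRCm39) and spans 67.9 kb. Its log2 fold change of -1.22 came with an average log2 CPM of 5.32, a p-value of 3.87e-06 and an FDR of 0.000213 (glmTreat). It ranked 422nd from the lowest of all genes, with 2.79% of genes lower. No stretch of 50 bases of its canonical transcript occurred in a transcript of another gene of the annotation. Its neighbours in the table, Mdh2 (0.14) and Hspb1 (0.57), had positive log2 fold changes, each with an FDR of 1. Srrm4, the relative with the known role in neuronal microexons, lies on the same chromosome from 116577334 to 116729924 on the minus strand (GRCm39). Its log2 fold change was -0.54, a fold of 0.687, with an average log2 CPM of 6.70 and an FDR of 1, and it did not pass. The log2 fold change of Srrm3 less that of Srrm4 was -0.68, a difference for which the table allows no error and no test. Of the canonical transcript of Srrm4, 0.428% of the stretches of 50 bases also occur in the antisense gene Srrm4os.

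Among the proteins related to the pair or working with it, the counts were 0 downregulated and 0 upregulated of 4 measured (0 and 0 also at an unadjusted p under 0.05). Over all genes, 2.11% were downregulated and 1.54% upregulated. The 4 log2 fold changes lay between 0.12 and 0.31, with a median of 0.21. Srrm2 (0.12) and Srrm1 (0.20), which encode general splicing coactivators, and Rnps1 (0.31), which encodes a protein of the exon junction complex, were the highest in average log2 CPM.

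Nova1 and Nova2 encode proteins that are known from the brain and that bind similar RNA motifs. Nova2, on chromosome 7 from 18659789 to 18699244 on the plus strand (GRCm39), had a log2 fold change of -1.08, with an average log2 CPM of 7.59. Its p-value was 0.00529 and its FDR was 0.127, so it did not pass, and 3.88% of genes were lower. Nova1, on chromosome 12 from 46741300 to 46866286 on the minus strand (GRCm39), had a log2 fold change of -0.29, a fold of 0.819, with an average log2 CPM of 7.47 and an FDR of 1. The difference between their log2 fold changes was 0.79 (Nova1 less Nova2) and could not be tested. No stretch of 50 bases was shared between their canonical transcripts. Of the canonical transcript of Nova2, 0.228% of such stretches occurred in 903 other genes, whereas Nova1 shared none.

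The promoter windows of Srrm3 and Nova2, the lowest log2 fold changes of the 10, and of Ptbp1, the highest, are shown as RefSeq gives them for GRCm38.p6, from 250 bases before to 50 bases after an annotated start. Capitals mark matches on either strand to CTTTGT (a SOX motif), CACGTG (a MYC E-box) or GGGCGG (a GC box); the motifs TTCAGCACC and GGACAG (the left and the right part of the REST element RE1) and TTTCGCGC (E2F) were searched too and are not in these 3 windows. The Srrm3 window is chr5:135817856-135818155, the Nova2 window chr7:18925638-18925937 and the Ptbp1 window chr10:79854182-79854481, all on the plus strand.
Srrm3: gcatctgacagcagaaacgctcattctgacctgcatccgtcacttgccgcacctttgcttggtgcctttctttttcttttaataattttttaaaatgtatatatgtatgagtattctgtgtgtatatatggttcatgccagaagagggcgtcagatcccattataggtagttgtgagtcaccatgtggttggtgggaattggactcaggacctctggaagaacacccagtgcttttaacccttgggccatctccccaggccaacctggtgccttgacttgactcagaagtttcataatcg
Nova2: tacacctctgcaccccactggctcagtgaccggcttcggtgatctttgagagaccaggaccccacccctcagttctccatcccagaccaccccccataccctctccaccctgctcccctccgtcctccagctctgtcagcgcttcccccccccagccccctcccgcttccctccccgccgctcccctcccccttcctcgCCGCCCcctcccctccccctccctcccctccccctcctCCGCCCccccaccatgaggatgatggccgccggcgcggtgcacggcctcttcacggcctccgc
Ptbp1: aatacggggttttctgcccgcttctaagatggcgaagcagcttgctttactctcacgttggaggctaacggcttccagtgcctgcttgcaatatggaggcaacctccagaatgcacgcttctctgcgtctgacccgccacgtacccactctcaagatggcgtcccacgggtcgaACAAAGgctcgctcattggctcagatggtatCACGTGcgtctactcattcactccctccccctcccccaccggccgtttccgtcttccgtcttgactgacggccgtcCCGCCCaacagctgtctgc
The Srrm3 window has a GC content of 45.0% and 5 CpG dinucleotides, the Nova2 window 71.3% and 17, and the Ptbp1 window 58.3% and 22. Over the 32851 windows of the table the median GC content was 52.7% and the median CpG count 7. The start used in these cells was not measured.

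RefSeq windows were found for 8 of the 10 regulators, 9 windows in all because Rbfox1 has more than 1, and none was matched for Ptbp3 and Rbfox2. Several windows lie away from the canonical start in GENCODE vM39 (negative is upstream). The distance was -463579 and 721463 bases for Rbfox1, 149097 for Rbfox3, 732 for Nova1 and 416 for Ptbp2. The counts below may therefore not describe the starts used in these cells. TTCAGCACC was found in 0 of the 9 windows and in 0.371% of all windows. The whole RE1 consensus, with up to 4 mismatches, was also found in 0 of the 9, against 1.46% of all. GGACAG was found in 1 (Ptbp2), against 22.2% of all windows, and CTTTGT in 2 (Ptbp1 and Rbfox3), against 18.7%. CACGTG was found in 1 (Ptbp1), against 7.15%, TTTCGCGC in 0, against 0.323%, and GGGCGG in 3 (Nova2, Ptbp1 and Ptbp2), against 35.7%. No exact match to the motifs searched was thus found in the window of Srrm3, which says only that these letters are not in those 300 bases. These counts depend on the matching rule. With up to 1 mismatch, GGACAG and CTTTGT were each found in 9 of the 9 windows, against 96.9% and 92.0% of all windows. By that rule CACGTG was found in 6 (63.6% of all), GGGCGG in 8 (84.9%), and TTCAGCACC (8.25%) and TTTCGCGC (8.76%) in 0.

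Ptbp1 was the regulator with the highest level per kb and the highest fold change. It lies on chromosome 10 from 79690261 to 79700605 on the plus strand (GRCm39). Its log2 fold change was 0.56, with an average log2 CPM of 8.78 and an FDR of 1, and 88.7% of genes were lower. Its value is uncertain because part of its sequence is shared. Of the 3061 stretches of 50 bases in its canonical transcript, 30.9% also occur in transcripts of 6 other annotated genes. In the same orientation, the noncoding gene Gm46400 shared 257 stretches, and the processed pseudogenes Gm4900 and Gm18815 shared 246 and 13. In the opposite orientation, the noncoding gene Gm17134 shared 342. The 6 genes also include genes on the opposite strand that overlap Ptbp1. Among the overlapping genes, Plppr3, which encodes a membrane protein related to lipid phosphatases, shares 280 of the 4816 exonic bases of Ptbp1. Plppr3 was downregulated, with a log2 fold change of -1.21, an average log2 CPM of 8.30 and an FDR of 0.000267 (glmTreat). E130317F20Rik shares 295 bases and had a log2 fold change of 0.07 with an FDR of 1. The libraries were strand-specific, but no source used here states whether the counting used strand, and whether reads of these genes entered the value of Ptbp1 was not tested.

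Ptbp2, the neuronal relative of Ptbp1, lies on chromosome 3 from 119509386 to 119578115 on the minus strand (GRCm39). The gene had a log2 fold change of -0.25, a fold of 0.840, with an average log2 CPM of 8.26 and an FDR of 1. Ptbp3, on chromosome 4 from 59471868 to 59549371 on the minus strand (GRCm39), had a log2 fold change of 0.24, a fold of 1.18, with an average log2 CPM of 6.19 and an FDR of 1. None of the 3 genes passed the test, and the log2 fold change of Ptbp1 less that of Ptbp2 was 0.81, a ratio of 1.76 between their folds that could not be tested. Neither Ptbp2 nor Ptbp3 shared a stretch of 50 bases with any other gene.

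Ptbp1 is known to lower the inclusion of an exon of Ptbp2, whose skipping sends the transcript to decay, and of the neuronal N1 microexon of Src. Both exons are shown because they are the classical readouts of Ptbp1, with TCTT, a pyrimidine motif bound by PTB proteins, in capitals. In GENCODE vM39 on GRCm39 the Ptbp2 exon is exon 10 of the canonical transcript, 34 bases at chr3:119518261-119518294 on the minus strand, present in 9 of the 14 transcripts that span it. The Src exon is 18 bases at chr2:157300763-157300780 on the plus strand, present in 6 of the 30 transcripts that span it.
Ptbp2 exon 10: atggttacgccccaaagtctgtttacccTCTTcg
Src N1 exon: gaggaaggtggatgtcag
The length of the Src exon is a multiple of 3 and that of the Ptbp2 exon is not. TCTT stands once in the Ptbp2 exon and not in the Src exon. Only the exons were searched and not the introns beside them, so the count does not show whether PTB proteins bind near either exon. The table holds gene-level values only, so that the inclusion of neither exon is measured here. As a gene, Src had a log2 fold change of -0.43 with an FDR of 1.

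The 9 genes with well-known Ptbp-controlled exons gave 0 downregulated and 0 upregulated genes (0 and 0 also at an unadjusted p under 0.05), with a median log2 fold change of -0.15 and a range from -0.81 to 0.53. Those with the highest average log2 CPM were the pyruvate kinase gene Pkm (0.49) and the actin-crosslinker gene Flna (-0.33). Of the 3 Ptbp cofactor genes, Raver1 (0.04), Matr3 (0.11) and Raver2 (1.05), which encode RNA-binding partners of Ptbp1, none passed, and the FDR of Raver2 was 0.838. Over all genes, 2.11% were downregulated and 1.54% upregulated.

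All 3 Rbfox genes had log2 fold changes below 0, and none passed. Rbfox3 encodes the neuronal antigen NeuN and lies on chromosome 11 from 118380442 to 118802423 on the minus strand (GRCm39). Its log2 fold change was -0.74, a fold of 0.601, with an average log2 CPM of 4.75 and an FDR of 1. Rbfox1, the longest gene of the 10 with 2106 kb, lies on chromosome 16 from 5124665 to 7230343 on the plus strand (GRCm39). Its log2 fold change was -0.64, a fold of 0.644, with an FDR of 1, and its average log2 CPM of 3.54 was the lowest of the 10. Rbfox2, which is expressed in many tissues, lies on chromosome 15 from 76963189 to 77191303 on the minus strand (GRCm39). It had a log2 fold change of -0.49, a fold of 0.713, with an average log2 CPM of 7.55 and an FDR of 1. The 3 values lay within 0.25 of each other on the log2 scale, the difference of Rbfox2 less Rbfox3. Of the stretches of 50 bases in the canonical transcript of Rbfox1, 9.97% also occur in Gm61302, a noncoding gene on the opposite strand, against 0.599% for Rbfox2 and 0.229% for Rbfox3 with other genes. Of the 9 genes of the LASR complex, the assembly of splicing regulators that Rbfox proteins join, 0 were downregulated and 0 upregulated (0 and 0 also at an unadjusted p under 0.05). Their median log2 fold change was -0.03, and the log2 fold changes of its members with the highest average log2 CPM were -0.17 for Hnrnph1, 0.32 for the helicase gene Ddx5 and 0.40 for Hnrnpc. Over all genes, 2.11% were downregulated and 1.54% upregulated.

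Genes whose exons are controlled by the other families were examined in the same way. For comparison with each list, 49.2% of all genes were below 0, 2.11% were downregulated and 1.54% upregulated. At an unadjusted p under 0.05, 3.43% of all genes were lower and 2.54% higher. Of 11 genes with known Nova-controlled exons, 10 were in the table, with a median log2 fold change of -0.37, and 8 of the 10 were below 0. At an FDR under 0.05, 1 of the 10 was downregulated and 0 were upregulated, with 2 lower and 1 higher at an unadjusted p under 0.05. The higher gene was the axon guidance receptor Robo2, with a log2 fold change of 1.13 and an FDR of 0.0896. Of 9 genes with Srrm4-controlled exons, 0 were downregulated and 0 upregulated (0 and 0 also at an unadjusted p under 0.05), 8 were below 0 and the median was -0.42. The translation factor genes Eif4g1 (-0.01) and Eif4g3 (-0.42) and Agap3 (-0.41) had the highest average log2 CPM of that list. Rest, which encodes the repressor of neuronal genes and carries a known Srrm4-controlled exon, was the single value above 0 in it, 0.47 with an FDR of 1. Of 10 genes with Rbfox-controlled exons, 0 were downregulated and 0 upregulated (0 and 0 also at an unadjusted p under 0.05). All 10 were below 0, from -0.93 to -0.07 with a median of -0.39. The spindle protein gene Numa1 (-0.29), the actin regulator gene Enah (-0.07) and the ankyrin gene Ank2 (-0.93) were the highest of them in average log2 CPM. The values used here measure neither the inclusion of an exon nor any action of the regulators on these genes. The paper analysed alternative splicing in wild-type and Setd2-KO NPCs separately. It reports significant differences for a small part of the detected events. The paper also shows RNA-binding proteins and splicing regulators whose expression differs between the genotypes. It proposes that such changes in expression could lead indirectly to differences in splicing. Those results were not used here.

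Other splicing regulators that differ between tissues were examined beside the 10. Of 25 such genes, 3 were downregulated and 0 upregulated, where 2.11% and 1.54% of all genes were. At an unadjusted p under 0.05, 4 were lower and 1 was higher, where 3.43% and 2.54% of all genes were. The median log2 fold change of the 25 was 0.01, against -0.51 for the 10 regulators, and 9 of the 25 were below 0. Values below 0 were not particular to the 10 regulators, as the Celf and Elavl genes named next show. The 3 downregulated genes were Celf4 (-1.37, FDR 1.16e-07), Elavl3 (-1.28, FDR 5.89e-06) and Celf6 (-2.03, FDR 4.07e-06). Elavl3 encodes the neuronal RNA-binding protein HuC, and Celf4 and Celf6 encode RNA-binding proteins of the CELF family. Of the other Celf and Elavl genes, Celf2 (-0.57), Celf3 (-0.997), Celf5 (-1.06), Elavl2 (-0.82) and Elavl4 (-0.71) lay below 0. Celf1 (0.04) and Elavl1 (0.06) lay above 0, and none of these other genes passed the test. The values of the list were spread to both sides, from -2.03 to 1.08.

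Markers of the cell types that such cultures can hold were read in the same table. Of 14 neuron markers, 5 were downregulated and 0 upregulated, with 7 lower and 0 higher at an unadjusted p under 0.05. Among all genes, 2.11% were downregulated and 1.54% upregulated, with 3.43% lower and 2.54% higher at that unadjusted p. All 14 markers lay below 0, where 49.2% of all genes did, from -1.49 to -0.56 with a median of -1.02. The 5 were Syt1 (-1.49), Stmn3 (-1.33), Gap43 (-1.32), Mapt (-1.32) and Nefm (-1.21). Syt1 encodes the calcium sensor of synaptic vesicles, Gap43 a growth cone protein, Mapt the microtubule protein tau and Nefm a neurofilament subunit. The average log2 CPM of the 14 ran from 2.64 to 9.75, so that none was at 0. Of 13 neural progenitor markers, 12 were in the table and Sox1 was not. Of these 12, 0 were downregulated and 0 upregulated (0 and 0 also at an unadjusted p under 0.05), with a median of 0.12 and values from -0.63 to 0.74. Vim (-0.03), Msi1 (0.01) and Top2a (0.36) had the highest average log2 CPM among them. Astrocyte and oligodendrocyte markers (6 of 9 in the table) had a median log2 fold change of -0.14 at a median average log2 CPM of 1.47, and muscle and heart markers (7 of 10) had a median of 0.34 at a median average log2 CPM of -0.16. Of these, Des was upregulated with a log2 fold change of 1.86. All 14 neuron markers thus lay on the same side of 0 as Srrm3, though 9 of them did not pass the test. The part of these markers in the values of the regulators was not tested.

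**Figure D4:**
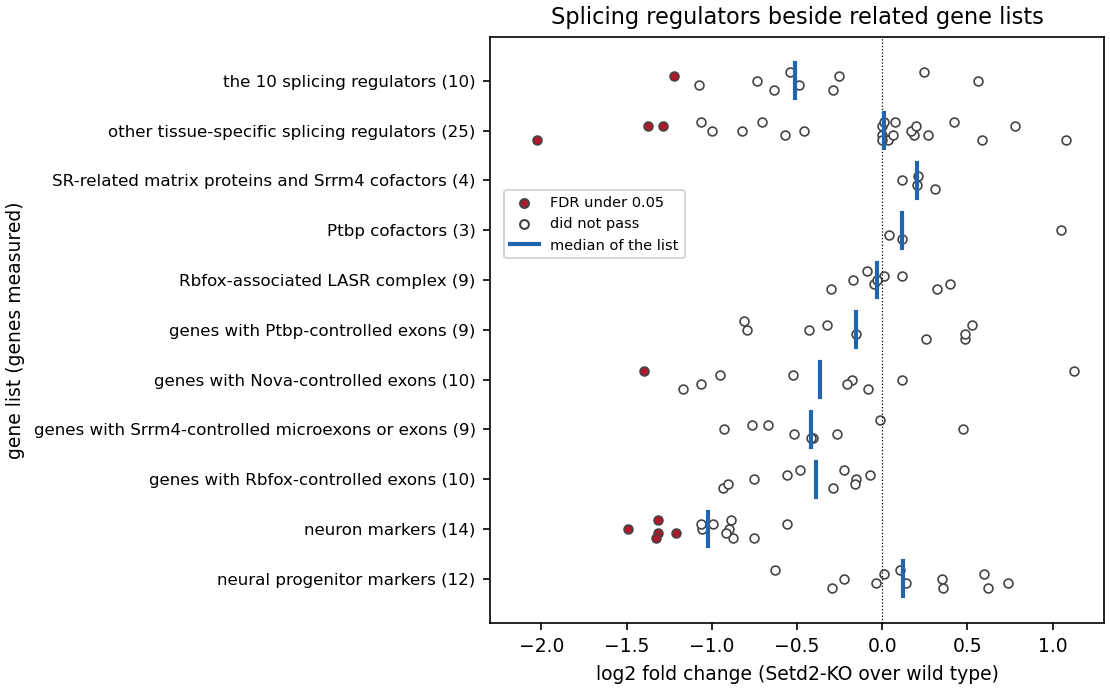
Each point is 1 gene, placed by its log2 fold change in Setd2-KO relative to wild type, in the row of its list, whose label gives how many genes were measured; red points have an FDR under 0.05, white points did not pass, blue bars are list medians, and the vertical scatter within a row has no meaning. The medians are -0.51 for the 10 splicing regulators, 0.01 for the other tissue-specific splicing regulators, -1.02 for the neuron markers and 0.12 for the neural progenitor markers.

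Each regulator was also read against the genes within 5 Mb on either side, as a description of the region around it. Srrm3 had 135 neighbours with a median log2 fold change of -0.10, and 6 of them were lower than Srrm3. Nova2 had 85 neighbours with a median of -0.14, of which 5 were lower than Nova2. Relative to these medians Srrm3 lay at -1.12 and Nova2 at -0.94, both below the middle 50% of their neighbours. Ptbp1 had 196 neighbours with a median of -0.09 and lay 0.66 above it, with 182 neighbours lower. The 44 neighbours of Ptbp2 had a median of -0.47, with 4 downregulated and 0 upregulated, and its own value of -0.25 lay 0.21 above that median. Nova1 lay below all of its 13 neighbours, whose median was 0.21. Srrm4 and the Rbfox genes lay between -0.38 and -0.63 relative to the medians of their neighbours, which were -0.05 for Srrm4, -0.03 for Rbfox1, -0.11 for Rbfox2 and -0.11 for Rbfox3. Ptbp3 lay 0.07 above the median of its 50 neighbours, 0.17.

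**Figure D5:**
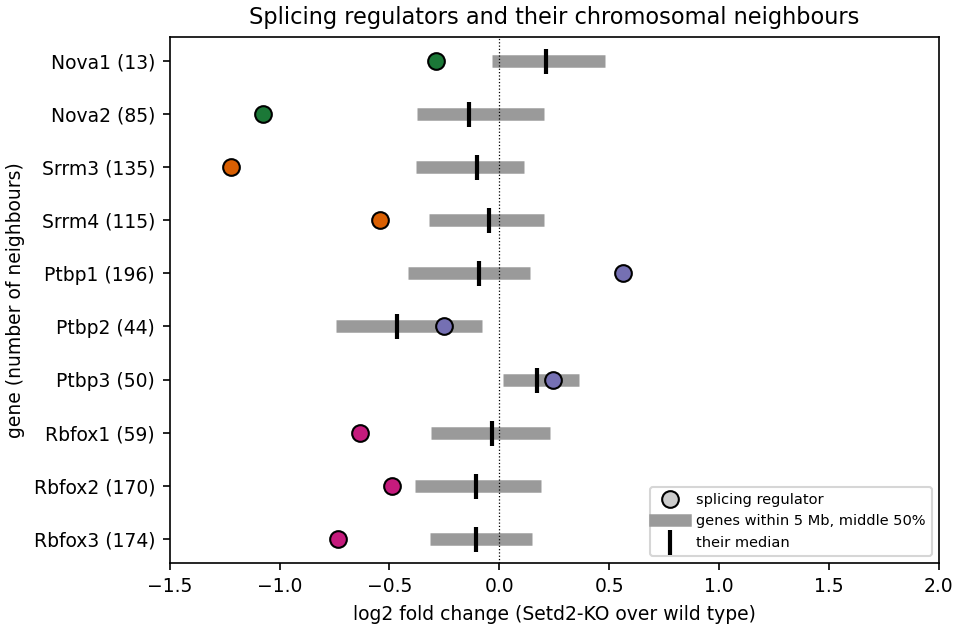
Each row is 1 splicing regulator with the number of genes within 5 Mb on either side in parentheses, and the horizontal axis is the log2 fold change in Setd2-KO relative to wild type; coloured points are the regulators, grey bars the middle 50% of the neighbours and black ticks their median. Ptbp2 and Ptbp3 lie within the grey bars, and the other regulators lie outside.

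The regulators differ in length, from 10.3 kb for Ptbp1 to 2106 kb for Rbfox1, and the median log2 fold change of all genes differed between length classes. It was 0.02 for the 2282 genes that span 50 to 100 kb, the class of Srrm3, Ptbp2 and Ptbp3, where 1.45% of genes were downregulated. In the class from 10 to 50 kb, with Nova2 and Ptbp1, the median was 0.02 and 1.87% of genes were downregulated. The 1388 genes of 100 to 200 kb, the class of Nova1 and Srrm4, had a median of -0.04, and 2.09% were downregulated. For the 688 genes of 200 to 500 kb, with Rbfox2 and Rbfox3, the median was -0.09, and 3.49% were downregulated. For the 193 genes of at least 500 kb, with Rbfox1, the median was -0.37, and 6.74% were downregulated. The values of Rbfox2 (-0.49), Rbfox3 (-0.74) and Rbfox1 (-0.64) lay below the medians of their classes, and the part of gene length in them was not tested.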

How the data were processed

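PolyA RNA of 3 Setd2-KO and 3 wild-type NPC libraries was measured, and groups came from the genotype labels. Tools listed in the submitters' notes are edgeR, STAR and Trim Galore, with mm9 (NCBIM37) as build, whereas the methods of the paper name GRCm39, a GENCODE annotation and Salmon. The authors filtered low counts, normalized the libraries (TMM) and deposited log2 fold changes, average log2 CPM, and the p-value and FDR of glmTreat, which tests against a log2 fold change of 1 in either direction. These are the columns of the authors' own comparison. The file holds no others besides a second fold change, not used here, so the fit could not be repeated and the depth of each library is unknown; precision is shown only by the average log2 CPM.

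The deposited sign was reversed, so that Setd2-KO is over wild type, by comparison with Dataset EV1, in which 518 of 523 shared genes then had the same direction. The adjustment was recomputed over all 15095 genes (tested on simulated data). Gene IDs matched GENCODE vM39 (GRCm39) for 15066 genes, which gave positions, lengths and shared stretches of 50 bases; 15053 IDs carried a lower version than there, so the annotation behind the values is older. Members and lists were chosen with earlier results of these data known. Some lists share genes, so that their counts and medians are not independent. Cacna1c is on the Ptbp and Rbfox exon lists, and Matr3 is a Ptbp cofactor and a LASR gene. Msi1 is on the lists of other splicing regulators and of progenitor markers. Named genes were the members, Setd2, up to 4 called genes per list by lowest p, or else up to 3 with the highest average log2 CPM, and the neighbours of called members. Stmn3, Robo2, Rest, Src, Raver2, Des, Plppr3, E130317F20Rik and genes sharing sequence were added after their values were seen. The same holds for Celf1, Celf2, Celf3, Celf5, Elavl1, Elavl2 and Elavl4. Some genes that the rule names are not reported here. Alternatives changed the FDR threshold (0.01 and 0.1), the adjustment (none and Bonferroni), the genes tested (average log2 CPM of at least 0, or protein-coding), the reference of the fold change (the median of all genes or of neighbours), the length measure, the mismatches allowed in a motif (up to 1), and the neuron markers (without Snap25, which is also on the Rbfox list; this and the length measure were added after the values were seen). Python 3.11.15, numpy 2.4.6 and pandas 2.3.3 were used.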

Additional observations from a re-analysis of the deposited data

How the results depend on the processing

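The number of downregulated regulators, 1 at an FDR under 0.05, was 2 at an unadjusted p under 0.05, where Nova2 was added, and 0 with the Bonferroni adjustment, where Srrm3 was lost. Over all genes the counts were 518 lower and 384 higher at an unadjusted p under 0.05, and 168 lower and 104 higher with Bonferroni, against 319 and 232. Of the genes with Nova-controlled exons, 0 were lower at an FDR under 0.01, 2 at an unadjusted p under 0.05 and 0 with Bonferroni, against 1, and 1 was higher both at an FDR under 0.1 and at an unadjusted p under 0.05, against 0. Of the other tissue-specific splicing regulators 1 was higher at an unadjusted p under 0.05, against 0. These settings use the same deposited p-values with another threshold or adjustment. Leaving out genes whose average log2 CPM was below 0, or those that do not encode proteins, left the call of Srrm3 in place and the regulators called at 1. Srrm3 lay at -1.23 relative to the median of all genes. Relative to its neighbours Ptbp2 lay at 0.21, against its own value of -0.25. No paired analysis was possible because the table holds no values per library; for the same reason no library could be left out and no other normalization was run. Depth per library is unknown, and Rbfox1 has the lowest average log2 CPM of the 10.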
